A study of Mus musculus with 9 samples.

Results

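The genes described here encode the subunits of the RNA polymerases and the basal factors that place these enzymes on promoters. They were taken as every protein-coding gene of the count table whose symbol in the GENCODE M21 annotation begins with Polr1, Polr2, Polr3, Gtf2, Gtf3 or Taf followed by a digit, together with Polrmt and Tbp. The rule gave 76 of the 21253 genes in the table and used no measured value.

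RNA was sequenced from 9 samples of AKP mouse tumoroids, a culture of tumour cells grown as organoids, whose genotype code the labels do not spell out. All samples carry a short hairpin RNA against Apc (shAPC), the gene of an inhibitor of the Wnt pathway, and the hairpin is active only with doxycycline. The control group (3 samples) was kept in doxycycline with Apc off. The 2-day group (3 samples, labelled early stage differentiation) and the 7-day group (3 samples, labelled late stage differentiation) had Apc restored by removing doxycycline for that time. No clone, donor animal or hairpin promoter is named. Replicates are called technical in the labels, so the p-values measure only how these libraries spread within a group, which may be technical. Doxycycline removal, Apc restoration and time in culture cannot be told apart, and both times were set against the same controls.

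As background, polymerase I transcribes the ribosomal RNA precursor, polymerase II transcribes messenger RNA, and polymerase III transcribes transfer RNA and other short RNAs. Each of these enzymes has a pair of large subunits of its own that form the active centre, and all of them share a set of small subunits. Polymerase I is brought to its promoter by SL1, polymerase II by TFIID and the general factors TFIIA to TFIIH, and polymerase III by TFIIIB, which TFIIIC and TFIIIA place, while Tbp serves all of them. In the intestine dividing cells sit in the crypts, and growing cells make much ribosomal and transfer RNA. Those RNAs were not measured, since the libraries were made from poly(A) RNA.

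The libraries held 24143589 to 32277040 counts. Levels are given as CPM, counts scaled to a common library size with TMM factors, and changes as the log2 fold change (log2FC) ± SE from edgeR's quasi-likelihood test across 12535 genes, called at an adjusted p under 0.05. Apc stood at 6.8 to 8.84 CPM in controls, 24.8 to 38.1 CPM at 2 days and 67.9 to 92.9 CPM at 7 days, in the order of the labels. The 6 epithelial markers summed to 9220 to 12200, 13700 to 15800 and 25900 to 35400 CPM in the same groups. Markers of other cell types were near 0. The 6 fibroblast markers summed to at most 1.12 CPM in any library, with Lum at 0 throughout, the 5 endothelial markers to at most 2.27 CPM, with Emcn at 0 throughout, and the 6 leukocyte markers to at most 1.47 CPM. Of the leukocyte markers only Csf1r passed the filter, and it was higher at 7 days, at 0.826 to 1.13 CPM, against at most 0.0386 CPM in controls. Markers of proliferating cells summed to 2280 to 2410 CPM in controls, 1800 to 2070 CPM at 2 days and 691 to 735 CPM at 7 days, and the 5 enterocyte markers to 5.48 to 9.08, 34.9 to 38.5 and 13200 to 14000 CPM. At 7 days all 6 proliferation markers were called lower, as were most of the polymerase genes below, and all 5 enterocyte markers were called higher. At 2 days only 2 of the 6 proliferation markers were called lower (Mcm2 and Mcm5), and 3 of the 5 enterocyte markers were called higher. The part of these changes in the results was not tested. In bulk samples fewer cells of a type and less RNA per cell cannot be told apart.

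After 7 days without doxycycline the transcription machinery was lower almost throughout. Of the 72 genes that passed the filter on low counts, 66 were called lower than in controls and 1 was called higher (edgeR, 7 days against control). That is 91.7% of the 72 called lower, where 41.8% of all genes tested were called lower and 40.5% higher. The median log2FC was −0.80, beside −0.03 over all genes tested. In 62 of the 72 genes every 7-day library lay below every control library, which was so for 41.8% of all genes. The gene called higher was Polr3gl, a polymerase III subunit, and 5 were not called (Polr2a, Polr3c, Gtf3c1, Gtf2ird1 and Taf13). Library size alone as the scaling moved the median of all genes to −0.43. Polr2a, Polr3c, Gtf3c1 and Gtf2ird1 were then called lower too (log2FC −0.45, −0.51, −0.50 and −0.28), Polr3gl was not called, and upper-quartile factors also called Polr3c lower (−0.20). Taf13 was called higher without control replicate 3 (log2FC 0.35) or without 7-day replicate 1 (0.32), and Gtf2ird1 without 7-day replicate 3 (0.22), so that 2 genes were then called higher. Counted directly, the 76 genes took 0.226%, 0.237% and 0.241% of all counts in the 7-day libraries and 0.499%, 0.501% and 0.515% in the control libraries. The 10 most abundant genes of the table took 12% to 13.8% of the counts at 7 days and 6.25% to 7.11% in controls.

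After 2 days the changes were small and pointed the same way. Of the 72 genes 12 were called lower (16.7%, where 10.6% of all genes tested were called lower) and 0 were called higher (13.1% of all genes were). At an unadjusted p under 0.05, 19 were lower and 0 higher, beside 16.8% and 17.9% of all genes, and limma-voom and DESeq2 also called 0 higher. The 12 were Polr1a, Polr1b, Polr1e, Polr1c, Polr3a, Polr3d, Polr3e, Gtf2h3, Gtf3c4, Gtf2i, Gtf2ird1 and Taf5l. The median log2FC was −0.12 and 60 of the 72 values were below 0. Every 2-day library lay below every control library in 22 genes, which was so for 19.4% of all genes, and above in 0 (19.9% of all genes). The count of 12 called lower was smaller without some single libraries. It was 4 without control replicate 1, 3 without control replicate 2, 4 without 2-day replicate 1 and 8 without 2-day replicate 3. The share called lower was then 5.56%, 4.17%, 5.56% and 11.1%, beside 7.32%, 6.4%, 7.23% and 7.45% of all genes, so it was not above the background in the first 3 of these. Of the 12 calls, those of Polr1b and Polr3a stood in every alternative run.

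**Figure D1:**
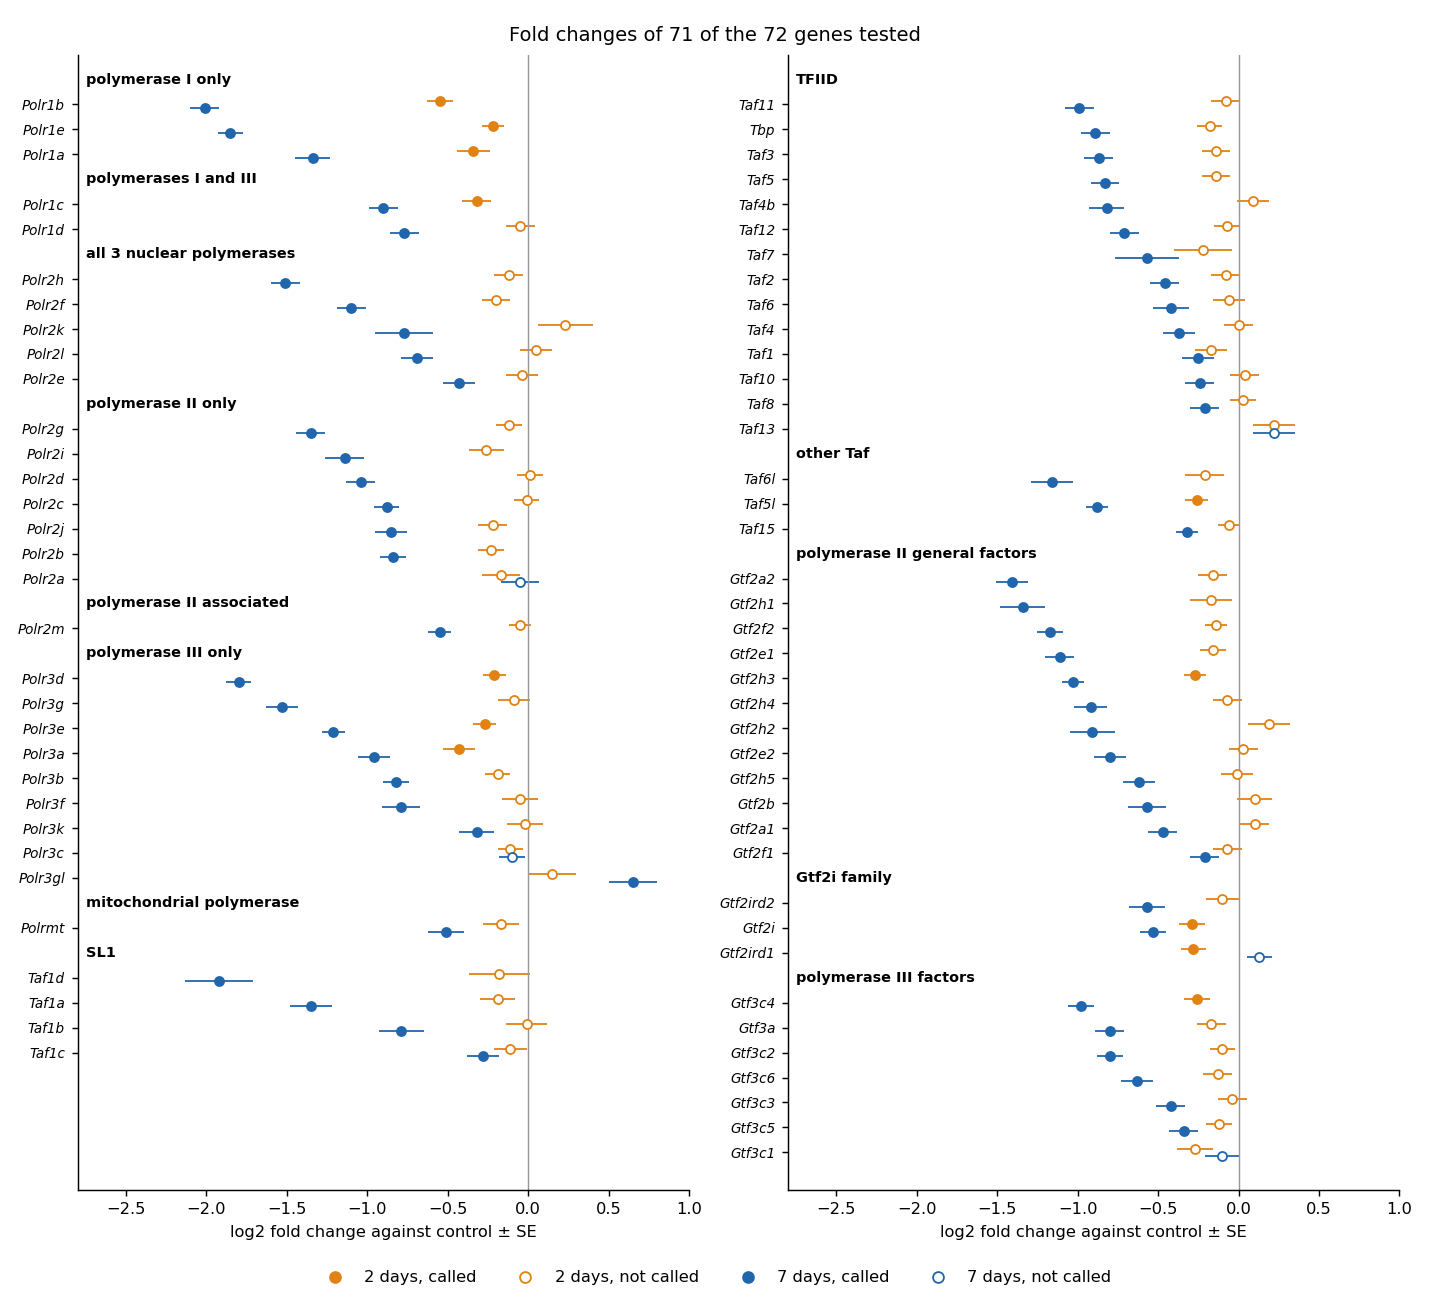
The log2 fold change against control ± SE (x axis) of 71 of the 72 genes tested, at 2 days (orange) and 7 days (blue), grouped by role; filled points were called at an edgeR adjusted p under 0.05 and open points were not. At 7 days the values run from −2.01 for Polr1b to 0.65 for Polr3gl.

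The class medians lay at different distances below control at 7 days. The 3 genes with a Polr1 symbol that serve polymerase I alone had a median log2FC of −1.85, the 7 Polr2 genes of polymerase II alone −0.88 and the 10 Polr3 genes of polymerase III −0.89. Subunits under other symbols narrow this gap: with Cd3eap, Twistnb and Znrd1 the 6 subunits of polymerase I had a median of −1.59, and with Crcp the 11 of polymerase III one of −0.96. In the 3 libraries the median level of the 3 Polr1 genes was 27%, 29.4% and 26.8% of their control mean at 7 days. The 7 Polr2 genes stood at 53.9%, 54.2% and 52.6%, and the 10 Polr3 genes at 53.8%, 52.1% and 51.7%. The ranges of single subunits overlapped, at −2.26 to −0.75 for the 6 of polymerase I, −1.35 to −0.05 for polymerase II and −1.80 to 0.65 for polymerase III, and the difference between the enzymes was not tested. At 2 days the medians of the 3, 7 and 10 genes were −0.34, −0.17 and −0.15, with 3, 0 and 3 called lower. Of these calls only those of Polr1b and Polr3a stood in every alternative run. Among the 6 polymerase I subunits 4 were called lower at 2 days, with a median of −0.23. Beside the counts of the classes and lists here and below, 10.6% of all genes were called lower at 2 days and 41.8% at 7 days. The shares of all genes called higher were 13.1% and 40.5%.

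**Figure D2:**
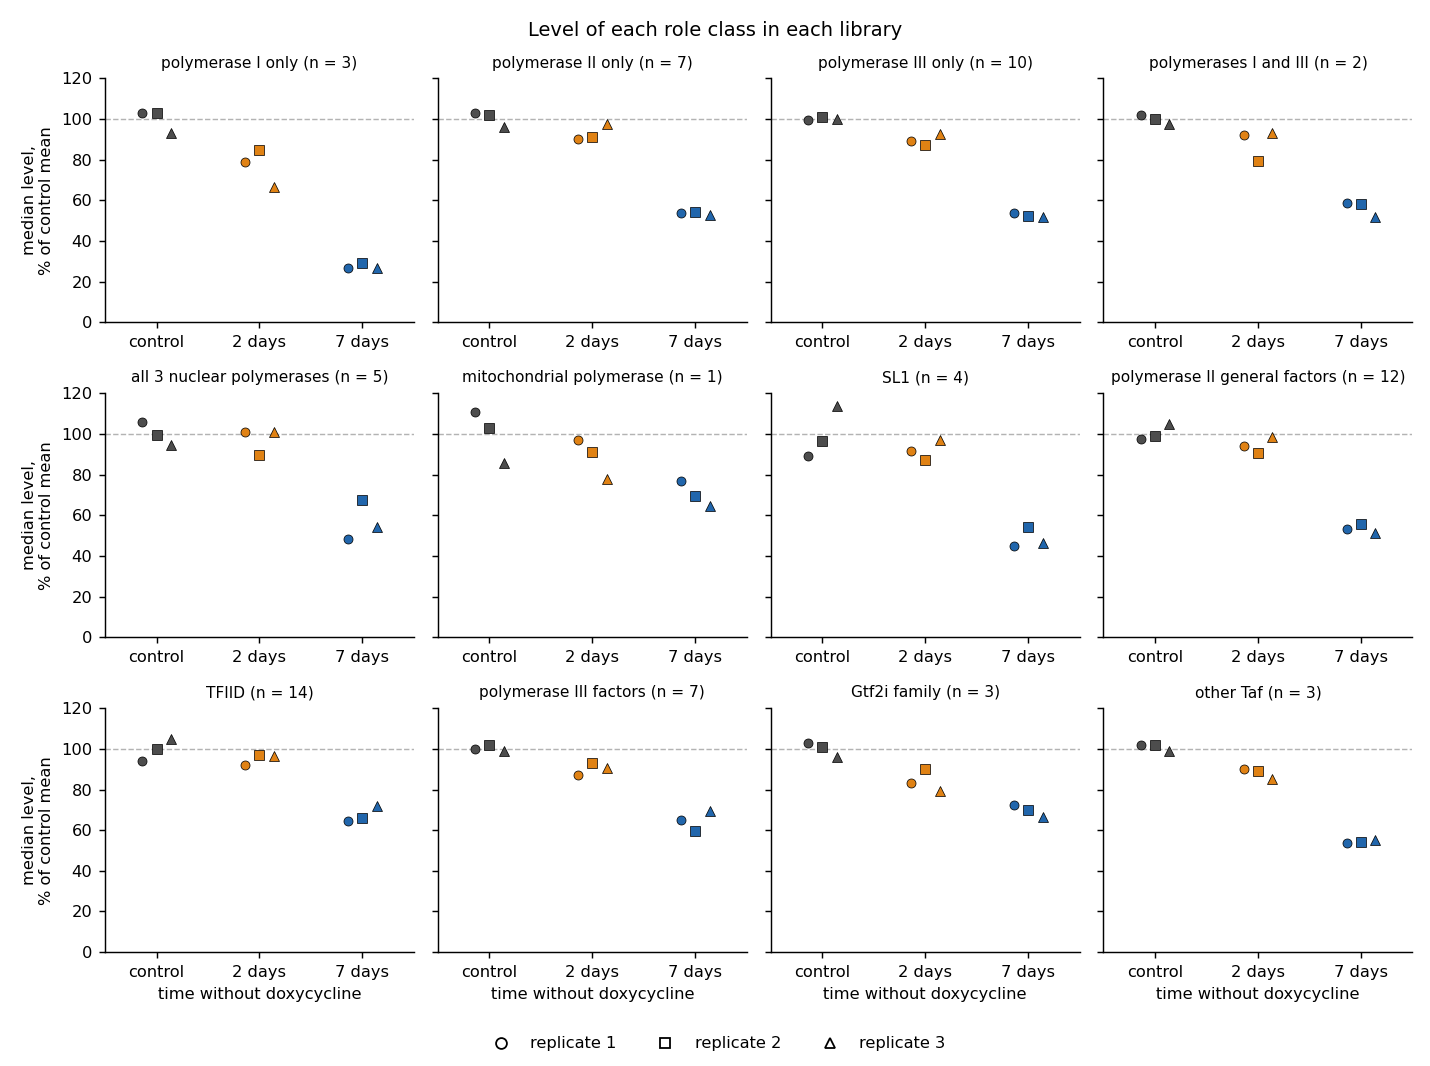
The median level of each role class in each of the 9 libraries, as a percentage of each gene's control mean (y axis), by time without doxycycline (x axis); point shapes mark the replicates and n is the number of genes tested. The 3 Polr1 genes of polymerase I alone stood at 26.8% to 29.4% at 7 days and the 7 Polr2 genes of polymerase II alone at 52.6% to 54.2%.

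The 250 bases before the transcription start are shown for 4 subunit genes: Polr1b, which had the largest fall of the 72 genes, Polr2a, which was not called at either time, and Polr3g and Polr3gl, alternative versions of one polymerase III subunit that moved in opposite directions at 7 days. They are RefSeq promoters of GRCm38.p6, read 5′ to 3′ on the gene's strand. Capitals mark the motifs searched, on both strands: CACGTG (the E-box), TATAAA (the TATA element), CCAAT (the CCAAT box), CCGGAAG (an element of ETS factors) and the palindromic motif of NRF1. None of the motifs overlaps another in these windows.
Polr1b (chr2:129100746-129100995, plus strand): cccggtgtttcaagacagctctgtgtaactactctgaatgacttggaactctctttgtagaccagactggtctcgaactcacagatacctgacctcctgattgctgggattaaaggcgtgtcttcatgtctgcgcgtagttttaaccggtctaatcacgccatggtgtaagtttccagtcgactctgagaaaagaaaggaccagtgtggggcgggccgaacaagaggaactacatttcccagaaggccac
Polr2a (chr11:69758634-69758883, minus strand): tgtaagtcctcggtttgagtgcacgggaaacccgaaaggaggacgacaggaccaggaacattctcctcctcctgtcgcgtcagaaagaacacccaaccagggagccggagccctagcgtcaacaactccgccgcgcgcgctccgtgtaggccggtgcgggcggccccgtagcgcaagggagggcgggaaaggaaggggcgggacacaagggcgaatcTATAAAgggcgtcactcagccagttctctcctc
Polr3g (chr13:81711014-81711263, minus strand): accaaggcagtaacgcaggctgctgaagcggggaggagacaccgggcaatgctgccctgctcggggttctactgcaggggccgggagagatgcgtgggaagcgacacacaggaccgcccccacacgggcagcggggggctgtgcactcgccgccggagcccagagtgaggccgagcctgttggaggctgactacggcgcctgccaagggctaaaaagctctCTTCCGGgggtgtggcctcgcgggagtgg
Polr3gl (chr3:96594182-96594431, minus strand): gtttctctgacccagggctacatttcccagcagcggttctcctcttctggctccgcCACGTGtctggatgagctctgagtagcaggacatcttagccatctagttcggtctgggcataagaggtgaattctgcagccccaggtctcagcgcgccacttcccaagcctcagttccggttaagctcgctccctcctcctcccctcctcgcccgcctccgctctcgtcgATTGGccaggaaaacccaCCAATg

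The Polr1b window held none of the 5 motifs. The Polr2a window held TATAAA starting 33 bases before the start site, the Polr3g window held CCGGAAG (on the opposite strand) at 29 bases, and the Polr3gl window held CACGTG at 194 bases and CCAAT at 24 (on the opposite strand) and 6 bases. RefSeq promoters were matched for 66 of the 76 genes, 78 windows in all, and not, among others, for Gtf2e2, Polr2d, Polr2g, Polr2k, Polr3a, Polr3d, Taf2, Taf4b and Taf7. CCGGAAG was in 28.2% of the 78 windows, 13.3% of those of all genes tested and 6.91% of all promoters. CACGTG was in 19.2%, 8.13% and 6.02%, TATAAA in 14.1%, 7.05% and 12.4%, CCAAT in 29.5%, 35.8% and 33.8%, and the NRF1 motif in 0, 1.53% and 0.782%. The 78 windows include genes that rose, were not called or were not tested. In the 66 windows of genes called lower at 7 days the shares, in the same order, were 30.3%, 16.7%, 12.1%, 28.8% and 0. These are descriptions of letters in a window, not of binding.

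The 3 genes with a Polr1 symbol that serve polymerase I alone were lower at both times. Polr1b (ENSMUSG00000027395, GRCm38 chromosome 2, 129100995 to 129126594, plus strand) is the second-largest subunit and forms the active centre with Polr1a. It stood at 156, 157 and 141 CPM in controls, 104, 112 and 93.9 CPM at 2 days, then 38.1, 38.3 and 36.1 CPM at 7 days. No library of one group overlapped another. At 7 days it was 4.03-fold lower than in controls (log2FC −2.01 ± 0.09, edgeR adjusted p = 8.1e-12), the largest fall among the 72 genes, and at 2 days 1.46-fold lower (−0.55 ± 0.08, edgeR adjusted p = 0.00013). Polr1a (chromosome 6, 71909053 to 71984935, plus strand), the largest subunit, was at 158, 154 and 137, then 118, 136 and 100, then 64.6, 58.2 and 55 CPM. Its 2-day libraries lay below all controls, with the highest 2-day library (136) close to the lowest control (137). The fall was 2.53-fold at 7 days (−1.34 ± 0.11, edgeR adjusted p = 1.4e-08), and the 2-day call (−0.34 ± 0.10, edgeR adjusted p = 0.027) was lost without any one of 4 libraries. Polr1e (chromosome 4, 45018583 to 45036565, plus strand), a subunit that helps the enzyme to initiate, was at 50.9, 50.7 and 49.2 CPM in controls, 43.9, 42.6 and 43.1 CPM at 2 days, then 13.6, 14.8 and 13.5 CPM at 7 days. The groups were again apart, and the 7-day fall was 3.61-fold (−1.85 ± 0.08, edgeR adjusted p = 8.1e-12). The 2-day call of Polr1e (log2FC −0.23 to −0.2 over the alternatives) was lost in 11 of them, at an edgeR adjusted p of up to 0.147.

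Polr1c and Polr1d, which pair as the assembly platform of polymerases I and III, both fell at 7 days. Polr1c (chromosome 17, 46243920 to 46248054, minus strand) stood at 110, 103 and 93.6 CPM in controls, 85.5, 76.8 and 83.2 CPM at 2 days, then 61.5, 54.8 and 48.3 CPM at 7 days. Each later group lay below the one before it, and Polr1c was called lower at 2 days (−0.32 ± 0.09, edgeR adjusted p = 0.021) and at 7 days (−0.90 ± 0.09, edgeR adjusted p = 3.3e-07). Polr1d was at 220, 223 and 235, then 229, 189 and 238, then 129, 142 and 126 CPM, overlapping at 2 days and apart at 7 days (−0.77 ± 0.09, edgeR adjusted p = 1.3e-06).

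The selectivity factor SL1, which carries Tbp and recruits polymerase I to the ribosomal RNA promoter, was lower in all 4 of its own subunits at 7 days and in 0 of 4 at 2 days. Taf1d stood at 65.6, 68.4 and 99.2 CPM in controls, 61.3, 60.1 and 84.2 CPM at 2 days, then 13.5, 22.3 and 25.4 CPM at 7 days. Replicate 3 was the highest library of each group, and the 7-day libraries lay below all others (−1.92 ± 0.21, edgeR adjusted p = 4.4e-07). Taf1a was at 8.81, 10.9 and 10.9, then 8.97, 8.58 and 9.36, then 3.72, 4.47 and 3.81 CPM (−1.35 ± 0.13, edgeR adjusted p = 7.5e-08 at 7 days). Taf1b, the subunit related to Gtf2b, fell by 0.79 ± 0.14. Taf1c had the smallest change, with 21.7, 21.1 and 17.4 CPM in controls, 19, 18.3 and 18.2 CPM at 2 days, then 18.2, 16 and 15.4 CPM at 7 days. Its 7-day and control libraries overlapped, the call (−0.28 ± 0.10, edgeR adjusted p = 0.019) was lost without control replicate 1 or 2 or without 7-day replicate 2 or 3, and part of its exons overlap Dnaaf1.

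The rest of the polymerase I list, 8 genes outside the symbol rule, were all called lower at 7 days, with a median log2FC of −1.09. It includes Cd3eap, Twistnb and Znrd1, which are polymerase I subunits under older symbols, and Twistnb and Znrd1 stood at −0.93 ± 0.14 and −0.75 ± 0.10 at 7 days and were not called at 2 days (−0.13 and 0.01). Cd3eap stood at 55.1, 54.9 and 52 CPM in controls, 46, 43.3 and 47.9 CPM at 2 days, then 11.4, 11.9 and 10.3 CPM at 7 days (−2.26 ± 0.09, edgeR adjusted p = 2.6e-12). Tcof1, a nucleolar protein that supports ribosomal RNA transcription, was at 254, 266 and 235, then 183, 202 and 170, then 54.7, 49.5 and 47.5 CPM (−2.32 ± 0.09, edgeR adjusted p = 3.4e-12). In both, no library of one group overlapped another. At 2 days 3 of the 8 were lower (Cd3eap, Tcof1 and Nolc1) and 0 higher, where 10.6% and 13.1% of all genes tested were. Cd3eap was not called with upper-quartile factors (edgeR adjusted p = 0.0554).

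**Figure D3:**
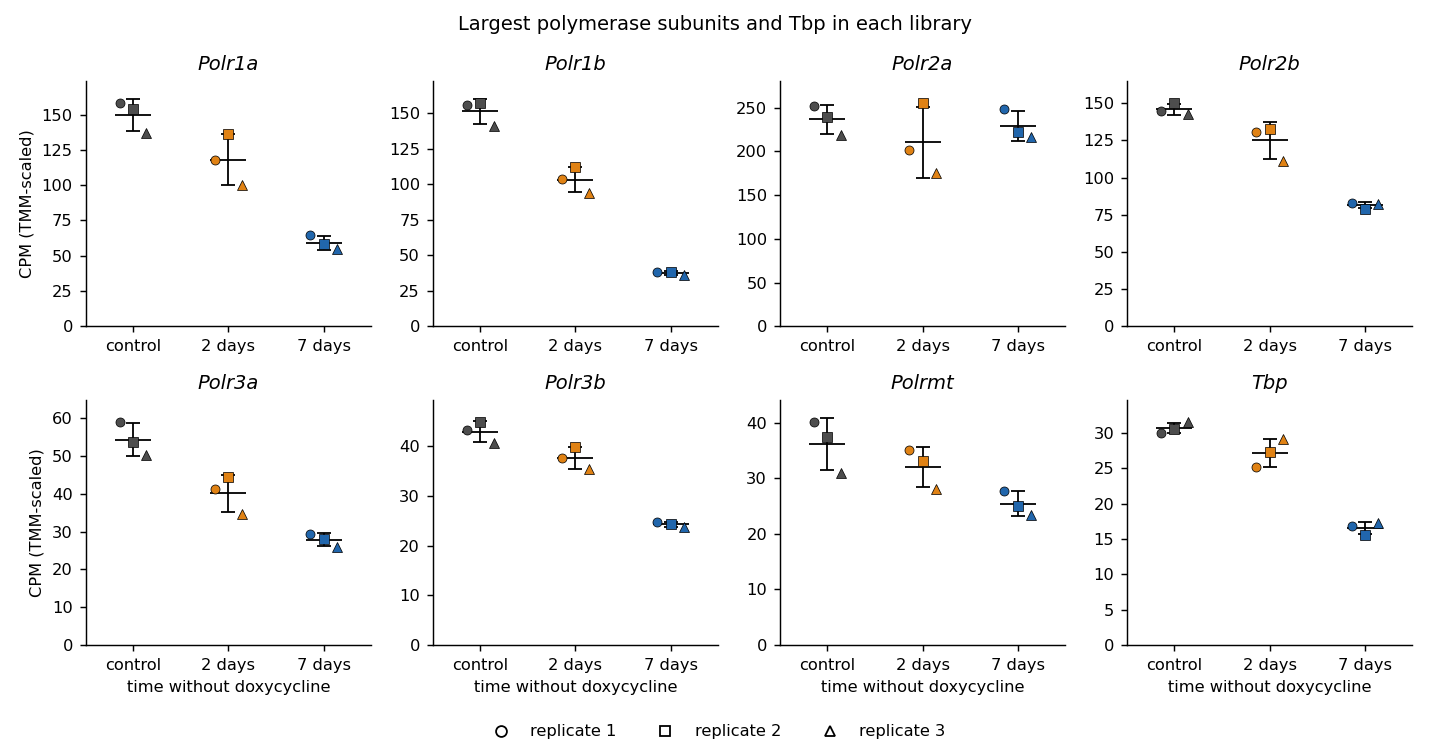
CPM of the large subunits of each polymerase, of the mitochondrial polymerase Polrmt and of Tbp in each library (points, shape by replicate), with the mean and SD of each group (bars, n = 3); each y axis starts at 0 and has its own scale. Polr2a, at 216 to 248 CPM at 7 days and 219 to 252 CPM in controls, overlaps between these groups, and the other 7 genes do not.

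In polymerase II, 6 of the 7 subunits of its own were lower at 7 days and the largest one was not. Polr2a (ENSMUSG00000005198, GRCm38 chromosome 11, 69733997 to 69758637, minus strand) carries the repeated tail that couples transcription to RNA processing. It stood at 252, 239 and 219 CPM in controls, 202, 255 and 175 CPM at 2 days, then 248, 222 and 216 CPM at 7 days. The groups overlapped, with 2-day replicate 2 the highest and 2-day replicate 3 the lowest of all libraries. The 7-day difference was −0.05 ± 0.12 (edgeR adjusted p = 0.71). Without 2-day replicate 2, Polr2a was called lower at 2 days than in controls (−0.33, edgeR adjusted p = 0.0323). It was then also called higher at 7 days than at 2 days (0.28, edgeR adjusted p = 0.0202). Polr2b (chromosome 5, 77310147 to 77349324, plus strand) is the second-largest subunit of polymerase II. It was at 145, 150 and 143 CPM in controls, 131, 133 and 111 CPM at 2 days, then 82.9, 79.1 and 82.1 CPM at 7 days. It fell 1.79-fold at 7 days (−0.84 ± 0.08, edgeR adjusted p = 1.2e-07), with the groups apart. At 2 days all libraries were also below the controls, and the difference missed the threshold (−0.23 ± 0.08, edgeR adjusted p = 0.054), though it was called with DESeq2 (adjusted p = 0.0352) and without 2-day replicate 2 or 7-day replicate 3 (0.036 and 0.0488).

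Polr2d and Polr2g form the stalk of polymerase II. Polr2g stood at 67.3, 71.1 and 71.7 CPM in controls, 68.6, 56.4 and 68.4 CPM at 2 days, then 27.3, 27.9 and 27 CPM at 7 days (−1.35 ± 0.09, edgeR adjusted p = 1e-09). Polr2d was at 44.4, 50.2 and 48.1, then 47, 44.6 and 52.3, then 22.7, 24 and 22.4 CPM (−1.04 ± 0.09, edgeR adjusted p = 2e-08). For both the 2-day and control libraries overlapped and the 7-day libraries stood below all others. Polr2i, Polr2c and Polr2j, smaller subunits, fell by 1.14 ± 0.12, 0.88 ± 0.08 and 0.85 ± 0.10. Each of these 3 shares exon bases with another gene of the table (Tbcb, Dok4 and Lrwd1), and without strand the reads cannot be told apart. Polr2m, a protein that binds polymerase II, fell by 0.55 ± 0.07 at 7 days.

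The 5 small subunits shared by the nuclear polymerases all fell at 7 days and none was called at 2 days, with medians of −0.77 and −0.04. Polr2h (chromosome 16, 20717665 to 20722267, plus strand) stood at 50.1, 46 and 43.8 CPM in controls, 45.1, 39.6 and 44.2 CPM at 2 days, then 16.6, 17.5 and 14.9 CPM at 7 days (−1.51 ± 0.09, edgeR adjusted p = 5.4e-10). Polr2f was at 116, 109 and 104, then 104, 84.2 and 98.1, then 52.8, 54.4 and 45.9 CPM (−1.10 ± 0.09, edgeR adjusted p = 3e-08). Both were lowest at 7 days in every library. Polr2k, the least abundant of the 5 per length in controls, was at 12.3, 10.2 and 14.2, then 13.4, 12.4 and 17.1, then 4.89, 8.34 and 8.17 CPM. Its 7-day libraries lay below the others with a wider spread (−0.77 ± 0.18, edgeR adjusted p = 0.0013). Polr2l fell by 0.69 ± 0.10 and Polr2e by 0.43 ± 0.10.

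In polymerase III, 8 of the 10 subunits of its own fell at 7 days, Polr3c was not called and Polr3gl rose. Polr3a (chromosome 14, 24448696 to 24487058, minus strand), the largest subunit, stood at 58.9, 53.6 and 50.2 CPM in controls, 41.3, 44.3 and 34.7 CPM at 2 days, then 29.4, 28.1 and 26 CPM at 7 days. The groups did not overlap, and it was called lower at 2 days (−0.43 ± 0.10, edgeR adjusted p = 0.0043) and at 7 days (−0.96 ± 0.10, edgeR adjusted p = 2.8e-07). Polr3b, its partner in the active centre, was at 43.4, 44.9 and 40.7, then 37.7, 39.8 and 35.4, then 24.8, 24.4 and 23.8 CPM. It was called at 7 days (−0.82 ± 0.08, edgeR adjusted p = 1.3e-07) and not at 2 days (−0.19 ± 0.08, edgeR adjusted p = 0.088).

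Polr3d (chromosome 14, 70438757 to 70443447, minus strand) and Polr3e form a pair that helps polymerase III to start and to end transcripts. Polr3d stood at 53.6, 53.9 and 54.4 CPM in controls, 46.1, 45.1 and 49 CPM at 2 days, then 15.2, 15.8 and 15.3 CPM at 7 days. This was a 3.49-fold fall at 7 days (−1.80 ± 0.08, edgeR adjusted p = 8.5e-12), with little spread within a group. The 2-day call of Polr3d (log2FC −0.24 to −0.18 over the alternatives) was lost in 11 of them, at an edgeR adjusted p of up to 0.147. Polr3e fell by 1.21 ± 0.07. Polr3f and Polr3k fell by 0.79 ± 0.12 and 0.32 ± 0.11, the call for Polr3k being lost without control replicate 3 (edgeR adjusted p = 0.0504). Polr3c stood at 81.4, 82.7 and 78.1 CPM in controls, 77.7, 72.8 and 73.9 CPM at 2 days, then 82.4, 73 and 70.4 CPM at 7 days. Its 7-day and control libraries overlapped (−0.10 ± 0.08, edgeR adjusted p = 0.23).

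Polr3c and Polr3f join a subunit that comes in alternative versions, Polr3g and Polr3gl. In human and mouse, Polr3g is the version known from undifferentiated and tumour cells, and Polr3gl is expressed broadly. Polr3g (ENSMUSG00000035834, GRCm38 chromosome 13, 81673843 to 81711013, minus strand) stood at 29.4, 31.7 and 34.3 CPM in controls, 29, 29.5 and 30.9 CPM at 2 days, then 9.69, 10.7 and 12.5 CPM at 7 days. The 2-day libraries overlapped the controls and the 7-day libraries lay below both, a 2.89-fold fall (−1.53 ± 0.10, edgeR adjusted p = 1.6e-09). Polr3gl (ENSMUSG00000028104, chromosome 3, 96577872 to 96594181, minus strand) was at 2.74, 3.76 and 3.55 CPM in controls, 3.52, 3.56 and 4.17 CPM at 2 days, then 4.72, 5.93 and 5.24 CPM at 7 days. Each 7-day library was above all others, a 1.57-fold rise (0.65 ± 0.15, edgeR adjusted p = 0.00086). Scaled by library size alone, the Polr3gl difference was 0.25 (edgeR adjusted p = 0.156), so its rise rests on the scaling. The ratio within a library does not depend on the scaling: per kilobase of exon, Polr3gl made up 54.5%, 57.7% and 50.8% of the pair at 7 days and 18.7%, 22.6% and 20.3% in controls. The mean share was 54.3% ± 3.45 at 7 days and 20.5% ± 1.96 in controls (SD, n = 3 each), and 23.7% ± 1.15 at 2 days. By counts not divided by length the shares were 32.7%, 35.7% and 29.5% at 7 days and 8.52%, 10.6% and 9.38% in controls, so which version is the more abundant at 7 days depends on the exon length used. An unequal change within the pair does not show by itself which version changed. The Polr3g fall at 7 days was called in every alternative run (log2FC −1.93 to −1.45).

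**Figure D4:**
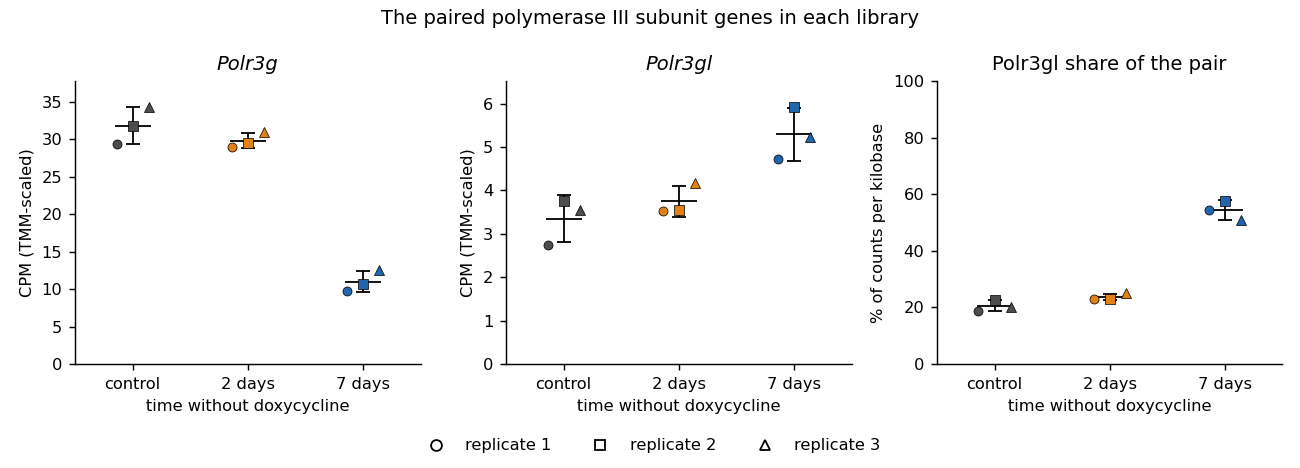
Polr3g and Polr3gl in each library as CPM (left and middle, own scales from 0) and the share of Polr3gl in the counts per kilobase of the pair (right, in percent), with the mean and SD of each group (n = 3). The share lies between 50.8% and 57.7% at 7 days and between 18.7% and 25% in the other 6 libraries.

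Of the polymerase III factors, 6 of 7 fell at 7 days and 1 of 7 at 2 days (Gtf3c4), with medians of −0.63 and −0.13. TFIIIC, made of the Gtf3c proteins, binds inside transfer RNA genes. Gtf3c4 stood at 76.7, 74.3 and 78.1 CPM in controls, 66.2, 67.3 and 57.6 CPM at 2 days, then 37.1, 41.7 and 37.2 CPM at 7 days (−0.98 ± 0.08, edgeR adjusted p = 2.7e-08). Gtf3c2 was at 41.5, 43.1 and 41.7, then 36.2, 41.1 and 40.4, then 23.1, 23.7 and 25.6 CPM (−0.80 ± 0.08, edgeR adjusted p = 2.3e-07). In both the 7-day libraries were apart from all others. Gtf3c1, the largest TFIIIC subunit, was at 154, 141 and 125 CPM in controls, 122, 131 and 96.2 CPM at 2 days, then 138, 136 and 118 CPM at 7 days. Its groups overlapped and it was not called at 7 days (−0.10 ± 0.11, edgeR adjusted p = 0.42). At 2 days Gtf3c1 was called lower with no filter on low counts (−0.26, edgeR adjusted p = 0.0364) and with the replicate block (−0.27, 0.00463). It was also called there without control replicate 3 or 2-day replicate 2 (−0.34 and −0.36, edgeR adjusted p = 0.0443 and 0.0485). With the block it was called higher at 7 than at 2 days (0.18, edgeR adjusted p = 0.023). Gtf3a, the TFIIIA that serves the genes of the smallest ribosomal RNA, fell by 0.80 ± 0.09. It shares 59.1% of its exon bases with Mtif3, and without strand the reads cannot be told apart.

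Of the other 10 polymerase III genes listed, 7 were lower and 3 higher at 7 days, and 0 were called at 2 days in edgeR. At 7 days 41.8% of all genes tested were called lower and 40.5% higher, so 3 of 10 higher is below the share of all genes. With library size alone as the scaling the 3 higher genes were not called. Snapc4, a subunit of the complex that activates small nuclear RNA genes, stood at 22.8, 24.7 and 23.1 CPM in controls, 20.1, 21.6 and 18.5 CPM at 2 days, then 10.6, 10.4 and 10.4 CPM at 7 days (−1.17 ± 0.09, edgeR adjusted p = 9.7e-09). Crcp, a subunit of polymerase III, was at 44.6, 48.2 and 51.3, then 42.1, 40.9 and 48.4, then 23.5, 24 and 24 CPM (−1.01 ± 0.09, edgeR adjusted p = 3.8e-08). Brf1, Brf2 and Bdp1, which form TFIIIB with Tbp, were lower (−0.34 ± 0.08, −0.51 ± 0.12 and −1.44 ± 0.15). The 3 higher genes were Maf1, a repressor of polymerase III (0.58 ± 0.11), and the small nuclear RNA factors Snapc1 (0.50 ± 0.11) and Snapc5 (0.51 ± 0.11). Maf1 was at 84.7, 76.1 and 65.2 CPM at 7 days and at 55.5, 51.3 and 44.3 CPM in controls, without overlap.

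All 12 general factors of polymerase II that were tested fell at 7 days, with a median of −0.91, and 1 (Gtf2h3) fell at 2 days. Gtf2f2, the smaller subunit of TFIIF, which escorts polymerase II to the promoter, stood at 67.2, 69.1 and 69.9 CPM in controls, 61.8, 58.6 and 67 CPM at 2 days, then 29.1, 30.9 and 31.3 CPM at 7 days (−1.17 ± 0.08, edgeR adjusted p = 1.3e-09). Gtf2a2, the small subunit of TFIIA, was at 76.2, 71.9 and 87, then 68.8, 65 and 77.2, then 26.9, 30.8 and 30.5 CPM (−1.41 ± 0.10, edgeR adjusted p = 2e-09). Both stood lowest at 7 days in every library. Gtf2f1, the larger subunit of TFIIF, changed least, with 129, 120 and 104 CPM in controls, 108, 116 and 112 CPM at 2 days, then 114, 97.2 and 93 CPM at 7 days. These groups overlapped, and its call (−0.21 ± 0.09, edgeR adjusted p = 0.049) was lost without any one of 7 libraries. The Gtf2f1 call was also lost with the DESeq2 test (DESeq2 adjusted p = 0.121). So it was with DESeq2 size factors and with a mean of at least 5 CPM (edgeR adjusted p = 0.111 and 0.0658). The 5 Gtf2h genes, core subunits of TFIIH, the factor that opens the promoter, fell by 0.62 to 1.34, Gtf2h1 most and Gtf2h5 least. Of the TFIIH helicases, which carry other symbols, Ercc2 fell by 0.72 ± 0.12 and Ercc3 was not called (0.12 ± 0.08, edgeR adjusted p = 0.17). TFIIE (Gtf2e1 and Gtf2e2) fell by 1.11 ± 0.09 and 0.80 ± 0.10, and Gtf2b by 0.57 ± 0.12. Gtf2a1l, a version of the large TFIIA subunit known from testis, had 0 counts in all 9 libraries, which allows up to 3 counts per library.

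In TFIID, 13 of the 14 genes tested were called lower at 7 days and 0 at 2 days, with a median of −0.51 at 7 days. Tbp (ENSMUSG00000014767, GRCm38 chromosome 17, 15499888 to 15528379, plus strand), the TATA-binding protein, stood at 30, 30.5 and 31.5 CPM in controls, 25.1, 27.3 and 29.1 CPM at 2 days, then 16.8, 15.6 and 17.2 CPM at 7 days. The groups were apart at both times, the 7-day fall was 1.85-fold (−0.89 ± 0.09, edgeR adjusted p = 1.3e-07) and the 2-day difference was not called (−0.18 ± 0.08, edgeR adjusted p = 0.15). Some of its exon bases overlap Pdcd2. Taf11, a histone-fold subunit, was at 30.4, 34.4 and 33.5, then 30.3, 29.8 and 33.2, then 17.1, 17.6 and 15 CPM (−0.99 ± 0.09, edgeR adjusted p = 9e-08). Its histone-fold partner Taf13 was at 9.35, 11.3 and 13.4 CPM in controls, 13.7, 11.8 and 14.1 CPM at 2 days, then 11.3, 13.9 and 14.4 CPM at 7 days. Taf13 overlapped between groups and was not called (0.22 ± 0.13, edgeR adjusted p = 0.14 at 7 days). Taf3, Taf5 and Taf12 fell by 0.87, 0.83 and 0.71, and the calls of Taf1, Taf10, Taf7 and Taf8, at −0.57 to −0.21, were each lost in some alternatives. Taf10 and Taf6, both counted as lower, share 45.9% and 26.5% of their exon bases with Ilk and Ap4m1.

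Several Taf genes have a close relative. Taf4 stood at 24.1, 25.7 and 27.6 CPM in controls, 23.1, 28.8 and 25.4 CPM at 2 days, then 19.2, 20.4 and 20.2 CPM at 7 days (−0.37 ± 0.10, edgeR adjusted p = 0.0022). Taf4b, its relative known from germ cells, was at 27.3, 32.5 and 37, then 33.7, 34.4 and 34.9, then 17, 17.3 and 20.3 CPM (−0.82 ± 0.11, edgeR adjusted p = 4.5e-06). Both had every 7-day library below all others. Taf4b held 45% ± 2.19 of the pair's counts per kilobase at 7 days and 52.7% ± 2.07 in controls (SD, n = 3 each). Taf7 was at 2.32, 2.96 and 3.8, then 2.6, 2.32 and 2.85, then 1.86, 1.8 and 2.46 CPM, with overlapping groups (−0.57 ± 0.20, edgeR adjusted p = 0.015). Its relative Taf7l, known from testis, was read 0 times in controls, 4 times at 2 days and 0 times at 7 days. In the same order Taf9 had 8, 13 and 2 counts and Taf9b 7, 12 and 11. Neither was tested, and 73.8% of the exon bases of Taf9 overlap Ak6.

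The 3 Taf symbols outside TFIID and SL1 also fell at 7 days. Taf5l and Taf6l belong to the SAGA coactivator. Taf5l stood at 110, 106 and 106 CPM in controls, 86.4, 91.3 and 91.7 CPM at 2 days, then 57.2, 58.4 and 59.3 CPM at 7 days (−0.88 ± 0.07, edgeR adjusted p = 9e-09), with the groups apart and a call at 2 days (−0.26 ± 0.07, edgeR adjusted p = 0.011). Taf6l was at 32.5, 29 and 23.8, then 25.6, 25.3 and 22.9, then 15.3, 12.2 and 10.9 CPM (−1.16 ± 0.13, edgeR adjusted p = 8.4e-07). Taf15, an RNA-binding protein, was at 82, 90.1 and 88.4, then 82.5, 83 and 84, then 69, 67.2 and 72.1 CPM (−0.32 ± 0.07, edgeR adjusted p = 0.00059).

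The Gtf2i family, DNA-binding proteins that are neighbours on chromosome 5, did not move as one. Gtf2i stood at 175, 171 and 162 CPM in controls, 137, 153 and 126 CPM at 2 days, then 120, 119 and 113 CPM at 7 days, lower at both times (−0.29 ± 0.08 and −0.53 ± 0.08, edgeR adjusted p = 0.016 and 1.9e-05). Gtf2ird2 was at 12.7, 11.4 and 10.7, then 10.5, 11.7 and 10.4, then 8.44, 7.59 and 7.51 CPM, and was lower at 7 days (−0.57 ± 0.11, edgeR adjusted p = 0.00015). Gtf2ird1 (chromosome 5, 134357656 to 134456716, minus strand) was at 59.3, 61.2 and 59.1 CPM in controls, 49.8, 50.7 and 47.5 CPM at 2 days, then 70.2, 68.8 and 57.2 CPM at 7 days. Its 2-day libraries were the lowest of the 9. It was called lower at 2 days than in controls (−0.28 ± 0.08, edgeR adjusted p = 0.025), higher at 7 days than at 2 days (0.41 ± 0.08, edgeR adjusted p = 0.00042) and not at 7 days against control (0.13 ± 0.08, edgeR adjusted p = 0.18). Scaled by library size alone, the last 2 differences were −0.02 and −0.28. The 2-day call of Gtf2ird1 was lost without control replicate 1 or 2 or without 2-day replicate 1 or 3.

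Polrmt (chromosome 10, 79736123 to 79746581, minus strand), the single-subunit polymerase of mitochondria, stood at 40.1, 37.4 and 31 CPM in controls, 35.1, 33.1 and 28.1 CPM at 2 days, then 27.8, 25.1 and 23.4 CPM at 7 days. The 7-day libraries were below all others (−0.51 ± 0.11, edgeR adjusted p = 0.00062), and the 2-day and control libraries overlapped. All 7 other genes of mitochondrial transcription listed fell at 7 days (median −0.80) and 0 at 2 days in edgeR, among them Mterf4 (−1.01 ± 0.13) and Mterf3 (−1.07 ± 0.16).

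Among the 20 other polymerase II genes, 15 were lower and 1 higher at 7 days, and 1 (Rpap3) lower at 2 days, a call lost with library size alone or upper-quartile factors (edgeR adjusted p = 0.084 and 0.0667). Gpn1, a GTPase that brings polymerase II into the nucleus, stood at 57.1, 55 and 56.6 CPM in controls, 49.4, 45.8 and 52.9 CPM at 2 days, then 18.1, 18.8 and 18.3 CPM at 7 days (−1.61 ± 0.08, edgeR adjusted p = 5.3e-11). Ccnh, the cyclin of the TFIIH kinase, was at 25.7, 28.4 and 29.2, then 24.6, 21.4 and 25.6, then 7.05, 8.71 and 7.62 CPM (−1.83 ± 0.11, edgeR adjusted p = 3.6e-10). The higher one was Ssu72, a phosphatase of the polymerase II tail (0.28 ± 0.07, edgeR adjusted p = 0.0027), which turned to −0.12 and was not called with library size alone as the scaling. Myc, a transcription factor known to act on polymerase genes, stood at 207, 217 and 187 CPM in controls, 150, 158 and 143 CPM at 2 days, then 94.4, 82.7 and 79 CPM at 7 days. It was lower at both times (−0.44 ± 0.09 and −1.25 ± 0.09, edgeR adjusted p = 0.0015 and 2.7e-09), as was its partner Max (−0.30 ± 0.07 and −0.41 ± 0.07). Mycn did not pass the filter.

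Between the later and the earlier time, 62 of the 72 genes were lower at 7 days than at 2 days and 2 were higher, Polr3gl (0.50 ± 0.15, edgeR adjusted p = 0.0058) and Gtf2ird1. That is 86.1% lower, where 39.9% of all genes tested were called lower and 39.2% higher. In 62 genes every 7-day library lay below every 2-day library, which was so for 40.2% of all genes. The medians were −1.46 for the 3 Polr1 genes of polymerase I alone (−1.23 with its 3 subunits under other symbols), −0.87 for the 7 Polr2 genes and −0.68 for the 10 Polr3 genes (−0.74 with Crcp). Polr1e and Polr3d, each within 0.22 of control at 2 days on the log2 scale, fell a further 1.63 ± 0.08 and 1.60 ± 0.08 by 7 days.

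Levels between genes were compared as CPM per kilobase of exon. In controls the large polymerase II subunits Polr2a and Polr2b stood at 33.4 and 31.3 CPM per kilobase, those of polymerase I, Polr1a and Polr1b, at 12.6 and 26, and those of polymerase III, Polr3a and Polr3b, at 9.3 and 8.17. At 7 days they were at 32.4 and 17.4, at 5 and 6.46, and at 4.77 and 4.62 CPM per kilobase. The Polr2m transcript was the most abundant in every group, at 125 CPM per kilobase in controls, 121 at 2 days and 85.8 at 7 days. The median of the 14 TFIID genes tested was 5.75 CPM per kilobase in controls, 5.4 at 2 days and 3.85 at 7 days, and that of the 4 SL1 subunits 5, 4.51 and 2.15. Merged exon length counts every annotated exon, so values per kilobase of genes with long rarely used exons are too low.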

How the data were processed

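RNA was measured in 9 tumoroid samples, 3 per group, grouped by the sample titles. The deposited values are raw counts, 1 whole number of reads per gene and sample. Per the submitters' processing notes, STAR 2.7.0e, featureCounts and DESeq2 were used with mouse builds mm10 and GRCm38. Neither the annotation release nor the strand setting is given in the sources used here. Per the labels' protocols, the poly(A) libraries came from a kit that does not mark strand, so reads of overlapping genes cannot be told apart. Of the 76 genes, 9 share over 10% of their exon bases with another gene of the table.

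Symbols, coordinates and exon lengths came from GENCODE M21 (GRCm38), which held 21236 of the 21253 gene IDs. Counts were filtered with filterByExpr, scaled by TMM (factors of 0.785 to 0.874 at 7 days, 1.093 to 1.117 at 2 days and 1.073 to 1.125 in controls) and fitted with edgeR 4.0.16 (R 4.3.3; glmQLFit, glmQLFTest) on all 9 samples with group as the only term. Tests were two-sided, with Benjamini-Hochberg adjustment over all 12535 genes and calls under 0.05. The SE is the log2 fold change over the square root of F. The floor of 3 counts covers counting error only. Any 2 replicates of a group differed by more than sampling noise (chi-square per degree of freedom 4.24 to 38.3), so none was merged.

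The genes, role classes and lists were chosen with earlier results of these data known. Values in every sample were given for the large subunits, Tbp, paralog pairs and, per class, the 2 genes with the smallest p at 7 days and the 1 with the largest. One gene tested and counted is not reported here by itself. Subunits under other symbols were added to the enzyme medians, and further members of the lists named, after the values were seen. Of each list of other genes, the 2 with the smallest p were given, and for counts of 5 or fewer others were named after their values were seen. In simulated counts with known changes the code recovered 92.5%, 86.6% and 86.6% of 1.5-fold changes. These were at 2 days against control, 7 days against control and 7 against 2 days, of 67 each, among 12127, 12137 and 12120 genes. In the same order 2.01%, 5.53% and 6.4% of the calls were false. The simulation changed few genes, evenly up and down and with the same spread for every gene. In the data 82.3% of genes were called at 7 days, so it cannot show how the code handles changes that wide. The alternatives were other scalings, filters, limma-voom (limma 3.58.1), DESeq2 1.42.0, only the 2 groups compared, a replicate block and leaving out each library. Same-numbered samples did not all deviate together (correlations −0.13 to 0.48). Between 7 days and control the correlations were 0.33, −0.01 and 0.48 for numbers 1, 2 and 3. These values do not settle whether the numbers mark pairs. The main test took none, and the replicate block was run as an alternative.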

Additional observations from a re-analysis of the deposited data

Results flagged for a closer look

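Gtf2ird1 stood out because its difference from control had opposite signs at the 2 times and the change between the times passed the test. It was 1.21-fold lower at 2 days than in controls and 0.41 higher on the log2 scale at 7 days than at 2 days (edgeR adjusted p = 0.00042), with all 3 libraries of 7 days above all 3 of 2 days. With library size alone as the scaling that second difference was −0.02. The 7-day difference from control was not called, and with library size alone it was −0.28 and called lower. Without control replicate 1 or 2, or without 2-day replicate 1 or 3, the 2-day call was lost (edgeR adjusted p = 0.0578 to 0.102).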

How the results depend on the processing

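With library size alone, 0 genes were called higher at 7 days against control and 0 at 7 against 2 days. With a mean of at least 5 CPM, which leaves Polr3gl untested, the counts were 0 and 1. Library size alone moved the median of all genes to −0.43 at 7 days against control and −0.44 at 7 against 2 days, with 3675 genes called higher and 6876 lower, and 3281 and 7041, where TMM gave 5080 and 5237, and 4912 and 5006. Upper-quartile factors moved it to −0.13 and −0.15. Under library size alone the medians of the Polr1, Polr2 and Polr3 genes of 1 enzyme alone at 7 days against control were −2.25 for polymerase I, −1.28 for II and −1.29 for III, and −1.88, −1.29 and −1.10 at 7 against 2 days. Under upper-quartile factors they were −1.95, −0.98 and −0.99, and −0.99 for II and −0.81 for III at 7 against 2 days. The polymerase III median at 7 days was also −0.85 with DESeq2 size factors and with the DESeq2 test, −0.94 with a mean of at least 5 CPM and −0.92 with only these 2 groups. Signs that turned with a call before or after, all with library size alone, were Gtf2ird1 at 7 days against control (−0.28), and at 7 against 2 days Gtf2ird1 (−0.02), Gtf3c1 (−0.25), Polr2a (−0.30) and Polr3c (−0.41).

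Leaving out 1 library at a time gave 3 to 13 genes lower at 2 days and 0 higher, 61 to 65 lower and 1 to 2 higher at 7 days, and 58 to 62 lower and 2 to 3 higher at 7 against 2 days. The medians then ran from −0.46 to −0.23, −0.22 to −0.14 and −0.17 to −0.12 for polymerases I, II and III at 2 days, from −1.89 to −1.82, −0.91 to −0.85 and −0.94 to −0.88 at 7 days, and from −1.53 to −1.40, −0.93 to −0.78 and −0.74 to −0.64 at 7 against 2 days. With the replicate block, 16 genes were lower at 2 days and 66 lower at 7 days. At 7 against 2 days 62 were then lower and 3 higher. In that order 22.2%, 91.7% and 86.1% of the 72 genes were lower, beside 15.7%, 43.3% and 41.7% of all genes. Over all alternatives run, 2 of the 12 calls at 2 days stood throughout, as did 59 of the 66 lower at 7 days and 56 of the 62 lower at 7 against 2 days. Where no cause is given, the cause was not tested.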
